A study of Mus musculus with 9 samples.

Results

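Genes of the B cell and of the antibody-secreting plasma cell, without the immunoglobulin genes themselves, were followed in dendritic cells (DCs) from mouse spleen that lack the transcription factor C/EBPβ. The group was a list of 33 genes, each represented by its brightest probe among the probes named for that gene alone. Of these, 32 had such a probe among the 22180 genes measured, and Cd72 lay only on a probe that it shares with another gene, so it is given no value. Transcripts were measured on 9 single-channel arrays of splenic DCs sorted as CD11c-positive and MHC class II-positive, with a stated purity above 95%. The knockout group held 3 samples labelled C/EBPbeta-/-, for which the protocols name CD11c.Cre x C/EBPβflox/flox mice. The control group held 6 samples labelled C/EBPbeta+/+, for which C57BL/6 and CD11c.Cre mice are named as sources without saying which sample came from which. All 9 came from naive mice of the C57BL/6 background, whose age no source used here states. The Cre recombinase is driven by the promoter of CD11c, a surface integrin of DCs that some macrophages, NK cells and B cells also carry. The labels do not say whether each replicate was a separate animal or a pool, so every p-value here rests on a spread between samples that could be technical.

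B cells sense antigen through a membrane immunoglobulin that signals through its partner chains Cd79a and Cd79b, kinases such as Blk and adaptors such as Blnk. The transcription factors Ebf1 and Pax5 set up and hold this programme. When a B cell becomes an antibody-secreting cell, Prdm1 (Blimp-1) shuts the programme down, Xbp1 enlarges the secretory apparatus, and the J chain joins IgA and IgM into polymers. In spleen these cells lie beside DCs, and several of the genes are not restricted to B cells: Prdm1, Xbp1 and Siglecg are known in DCs, Blnk also in macrophages, and the genes of protein folding in most cells.

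The deletion was checked first. Cebpb had log2 intensities of 5.37, 5.60 and 5.42 in the knockouts, against 6.64 to 7.15 in the controls (median 6.77). The groups did not overlap, and the log2 change was -1.35 (SE 0.11, limma's adjusted p = 0.00074). Array medians lay between 5.49 and 5.56, and 201 of 22180 genes passed an adjusted p of 0.05 by limma with Benjamini-Hochberg adjustment. The MHC class II genes H2-Aa (13.25 to 13.29 in the knockouts, 13.08 to 13.22 in the controls) and H2-Ab1 (13.69 to 13.75 in the knockouts, 13.65 to 13.71 in the controls) were bright on every array. The table gives log2 values with no call of presence, so whether a dim probe measures its transcript is not known, and levels of different probes are not set against each other.

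Knockout replicate 3 stood apart from the other samples. Its array received the lowest of limma's array weights, 0.47, beside 0.87 to 2.10 for the other 8, and it was the lowest of all 9 samples in 19.5% of all genes, so it differed beyond the B cell genes. It had the highest value of all 9 samples in 18 of the 32 genes, as it did in 13.6% of all genes tested. Of the 32 genes, 22 were above every control in knockout replicate 3, 12 in knockout replicate 1 and 5 in knockout replicate 2. Over all genes the same shares were 17.1%, 14.9% and 13.7%. In knockout replicate 2, 8 of the 32 genes were below every control, a share near the 19.1% of all genes. Averaged over the 32 genes, the distance from the control mean was 0.19, 0.027 and 0.59 in the knockouts (replicates 1, 2 and 3), and -0.062 to 0.14 in the controls, of which control replicate 1 was the highest. These differences are on the log2 scale, as are all changes given here. In bulk samples such as these, more cells of a type and more RNA per cell cannot be told apart.

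**Figure D1:**
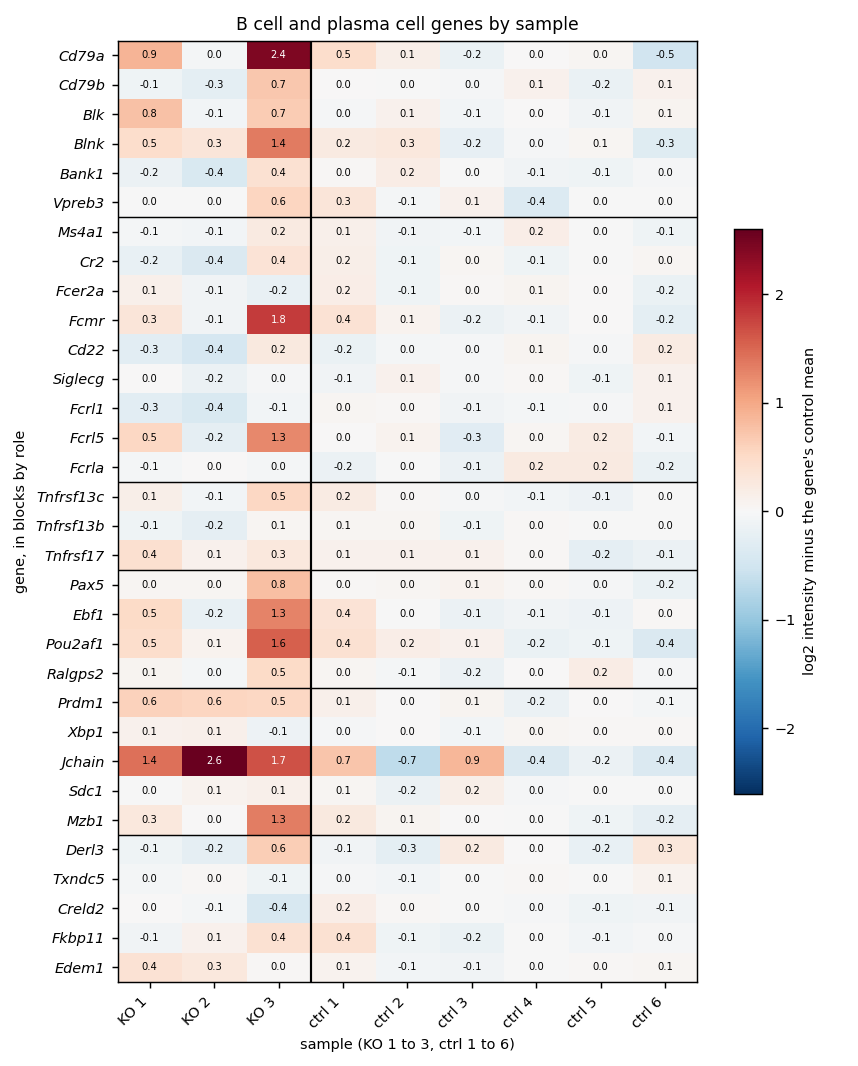
Heat map of the 32 genes (rows, in blocks by role) in the 3 knockout (KO) and 6 control (ctrl) samples (columns), coloured by the log2 intensity minus the gene's control mean. Knockout replicate 3 reached 2.42 for Cd79a and knockout replicate 2 reached 2.56 for Jchain, while Prdm1 was between 0.55 and 0.59 in all 3 knockouts.

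In the comparison of knockout with control DCs, 2 of the 32 genes rose, Prdm1 and Jchain, and 0 fell. Over all genes tested 0.906% passed in either direction, 0.415% higher and 0.491% lower in the knockout. At an unadjusted p of 0.05, 9 of the 32 genes were higher and 1 was lower, against 5.5% and 8.82% of all genes. The median change of the 32 genes was 0.16, beside -0.014 over all genes. It was 0.028 without knockout replicate 3 and 0.27 without knockout replicate 2. Of the 32 genes, 3 had all knockout samples above every control, Prdm1, Jchain and Blnk, and 0 had all below. Over all genes these shares were 2.52% and 4.88%. The 2 that rose belong to the antibody-secreting programme, and none of the 22 genes of the B cell receptor, surface receptors, BAFF and APRIL receptors and B lineage factors passed the test, of which 5 were higher and 1 lower at an unadjusted p of 0.05.

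Prdm1, the repressor that ends the B cell programme, rose. Its probe read 8.22, 8.18 and 8.18 in the knockouts, against 7.48 to 7.76 in the controls (median 7.64). The knockouts lay close together and above every control. The mean was 8.19 ± 0.025 in the knockouts (SD, n = 3) and 7.63 ± 0.099 in the controls (SD, n = 6). The difference of 0.56 (SE 0.07, limma's adjusted p = 0.0059) is a fold of 1.48, and its 95% confidence interval ran from 0.41 to 0.71. It passed in each of the 9 fits that left out 1 sample, with limma's adjusted p between 0.0085 and 0.041. When a change of more than 1.2-fold was required (limma's treat), neither Prdm1 nor any other of the 32 genes passed. A fit with the replicate number as a block rests on replicates 1 to 3 of each group. In it 2 of all genes tested passed, and the deleted gene Cebpb did not. Prdm1 changed by 0.49 there and did not pass either (limma's adjusted p = 0.34). Without knockout replicate 3 its change was 0.57, and without knockout replicate 1 it was 0.55.

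Jchain, which encodes the J chain of polymeric IgA and IgM, had the largest change of the 32 genes. It read 8.63, 9.76 and 8.85 in the knockouts, against 6.52 to 8.06 in the controls (median 6.93). All knockouts were above every control, and the controls themselves fell apart, with replicates 1 and 3 at 7.91 and 8.06 and the other 4 between 6.52 and 7.03. The mean was 9.08 ± 0.60 in the knockouts (SD, n = 3) and 7.19 ± 0.64 in the controls (SD, n = 6). The difference of 1.89 (SE 0.36, limma's adjusted p = 0.046) is a fold of 3.70, and its 95% confidence interval ran from 1.09 to 2.68. This call was near the threshold. It held without knockout replicate 1 (limma's adjusted p = 0.044) and without control replicate 3 (0.041). It was lost without knockout replicate 2 (adjusted p = 0.17) or 3 (0.08) and without control replicate 1 (0.051), 2 (0.065), 4 (0.1), 5 (0.09) or 6 (0.092), with changes of 1.55 to 2.11 over the 9 fits. The order of the knockouts in Jchain was not that of the B cell genes, because knockout replicate 2 was the highest sample for Jchain and among the lower ones for Cd79a.

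The promoters of the 2 genes that rose are shown first, 250 bases before to 50 bases after the RefSeq start of the gene (GRCm38.p6), in lower case. Each promoter was searched on both strands for the octamer ATGCAAAT bound by Oct factors and their partner Pou2af1, for the EBF palindrome (TCCC and GGGA 2 bases apart), for the ER stress element (CCAAT and CCACG 9 bases apart), for the XBP1 and ATF6 element TGACGTGG, and for the C/EBP palindrome TTGCGCAA, and matches are in capitals. The reverse complement of TGACGTGG begins with CCACG, the second block of the ER stress element, so these motifs can overlap. RefSeq promoters were found for 29 of the 33 listed genes, 37 promoters in all. Neither of these 2 holds a match to any of the 5 motifs.
Prdm1 promoter, chr10:44458699-44458998, minus strand: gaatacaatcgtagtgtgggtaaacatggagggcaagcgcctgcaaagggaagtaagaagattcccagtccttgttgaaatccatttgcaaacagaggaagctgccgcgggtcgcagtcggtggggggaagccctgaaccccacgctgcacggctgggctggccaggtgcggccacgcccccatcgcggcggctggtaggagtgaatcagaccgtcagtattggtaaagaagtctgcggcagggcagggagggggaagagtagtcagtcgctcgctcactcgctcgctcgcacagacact
Jchain promoter, chr5:88527848-88528147, minus strand: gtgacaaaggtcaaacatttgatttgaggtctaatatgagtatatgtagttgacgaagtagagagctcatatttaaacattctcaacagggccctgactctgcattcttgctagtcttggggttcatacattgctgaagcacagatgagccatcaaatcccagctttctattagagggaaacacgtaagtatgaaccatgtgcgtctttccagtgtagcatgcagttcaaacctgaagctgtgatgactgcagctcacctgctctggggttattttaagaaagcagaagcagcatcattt
The C/EBP palindrome was in 0 of the 29 genes' promoters and in 0.183% of all 32851 promoters, and a longer or degenerate site was not searched for.

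The other genes of the antibody-secreting programme did not pass the test. Xbp1, the factor that drives expansion of the endoplasmic reticulum (ER), read 10.16, 10.19 and 9.91 in the knockouts, against 9.97 to 10.09 in the controls (median 10.06). Knockout replicates 1 and 2 lay above every control and knockout replicate 3 below every control (change 0.041, SE 0.07, limma's adjusted p = 0.85). Mzb1, an ER protein of B and plasma cells that helps to assemble IgM, read 6.37, 6.10 and 7.43 in the knockouts, against 5.87 to 6.34 in the controls (median 6.10). Only knockout replicate 3 was far above the controls, and the change of 0.54 (SE 0.23, limma's adjusted p = 0.32) was 0.14 without it. Sdc1, the plasma cell surface proteoglycan CD138, read 5.62, 5.71 and 5.77 in the knockouts, against 5.47 to 5.79 in the controls (median 5.62), so the groups overlapped (change 0.072, SE 0.07, limma's adjusted p = 0.72). A second, dimmer Sdc1 probe differed by -0.12. Jchain and Prdm1 were thus higher in all knockouts while Sdc1 was within the range of the controls in each.

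The 5 genes of protein folding and ER-associated degradation gave no common direction. None passed the test (limma), and 1 was higher and 0 were lower at an unadjusted p of 0.05. Edem1, a lectin that hands misfolded glycoproteins to degradation, read 10.68, 10.58 and 10.33 in the knockouts, against 10.20 to 10.40 in the controls (median 10.31). Knockout replicates 1 and 2 were above every control and replicate 3 was among them (change 0.23, SE 0.08, limma's adjusted p = 0.23, and a change of 0.32 with adjusted p = 0.079 without replicate 3), and a second, dimmer probe differed by -0.086. Derl3, a channel component of the same degradation pathway, read 6.71, 6.58 and 7.47 in the knockouts, against 6.57 to 7.12 in the controls (median 6.78). Creld2, an ER stress-inducible chaperone-like protein, read 9.87, 9.80 and 9.44 in the knockouts, against 9.75 to 10.03 in the controls (median 9.84). In knockout replicate 3 Derl3 was therefore the highest and Creld2 the lowest of all 9 samples. Txndc5, a protein disulphide isomerase, differed by -0.043 and Fkbp11, a prolyl isomerase of the secretory pathway, by 0.14, with limma's adjusted p from 0.55 to 0.87 for these 2 genes, Derl3 and Creld2.

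The promoters of Derl3 and Creld2 are shown because both hold the ER stress element (capitals), on the minus strand of the promoter in each case, while their values went opposite ways in knockout replicate 3. Among all promoters 0.119% hold it, and among the 29 genes these 2 do.
Derl3 promoter, chr10:75893148-75893447, plus strand: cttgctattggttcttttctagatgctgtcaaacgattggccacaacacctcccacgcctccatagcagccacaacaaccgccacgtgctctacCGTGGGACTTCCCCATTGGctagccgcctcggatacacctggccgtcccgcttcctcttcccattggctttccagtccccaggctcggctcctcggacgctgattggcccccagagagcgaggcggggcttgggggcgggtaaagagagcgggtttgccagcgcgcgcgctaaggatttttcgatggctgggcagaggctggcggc
Creld2 promoter, chr15:88819396-88819695, plus strand: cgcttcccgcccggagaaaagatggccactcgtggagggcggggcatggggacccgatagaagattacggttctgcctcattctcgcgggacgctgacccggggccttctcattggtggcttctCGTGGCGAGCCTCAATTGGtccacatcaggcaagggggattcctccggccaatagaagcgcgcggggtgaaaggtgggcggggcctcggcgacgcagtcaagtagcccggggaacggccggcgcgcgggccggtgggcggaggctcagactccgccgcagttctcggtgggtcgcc
The element begins 156 bases before the start in Derl3 and 126 bases before it in Creld2. The XBP1 and ATF6 element TGACGTGG was in promoters of Pou2af1 and Txndc5 and in 0.676% of all promoters.

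None of the 6 genes of the B cell receptor and its first signalling steps passed the test. All 6 had their value in knockout replicate 3 above every control, beside 17.1% of all genes. Cd79a, the signalling chain Igα, read 8.67, 7.74 and 10.21 in the knockouts, against 7.29 to 8.24 in the controls (median 7.81). Knockout replicate 3 was 2.42 above the control mean and replicate 1 was 0.89 above it, while replicate 2 lay among the controls. The mean was 8.87 ± 1.25 in the knockouts (SD, n = 3) and 7.78 ± 0.32 in the controls (SD, n = 6), a change of 1.09 (SE 0.41, limma's adjusted p = 0.26), or 0.42 (SE 0.26, adjusted p = 0.6) without knockout replicate 3. Its partner Cd79b, Igβ, read 8.47, 8.32 and 9.29 in the knockouts, against 8.42 to 8.70 in the controls (median 8.58). Replicate 3 was above and replicate 2 below every control (change 0.11, SE 0.17, limma's adjusted p = 0.84, and -0.19 without knockout replicate 3). In knockout replicate 3 Cd79b was 0.70 above its control mean, beside 2.42 for Cd79a.

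Blnk, the adaptor that links the receptor to phospholipase C, was above every control in each knockout. It read 7.06, 6.92 and 7.96 in the knockouts, against 6.29 to 6.87 in the controls (median 6.62). The nearest knockout and control were close, and the change of 0.71 (SE 0.21, 95% confidence interval 0.24 to 1.18) did not pass (limma's adjusted p = 0.16), nor did it without knockout replicate 3 (0.38, SE 0.15, adjusted p = 0.34). Blk, a Src family kinase of B cells, read 8.08, 7.26 and 7.99 in the knockouts, against 7.23 to 7.43 in the controls (median 7.31). It was 0.76 and 0.67 above the control mean in knockout replicates 1 and 3 and within the controls in replicate 2, with a change of 0.45 (SE 0.15, limma's adjusted p = 0.2). Without knockout replicate 2 its change was 0.71 (SE 0.08) and passed (limma's adjusted p = 0.016), while the other 8 fits with 1 sample left out gave adjusted p from 0.21 to 0.47. Bank1, a scaffold protein of receptor signalling, read 8.93, 8.70 and 9.49 in the knockouts, against 8.99 to 9.28 in the controls (median 9.07), so that 2 knockouts were below and 1 was above every control. Vpreb3, which binds immunoglobulin heavy chains in early B cells, read 4.91, 4.91 and 5.47 in the knockouts, against 4.57 to 5.24 in the controls (median 4.91), with equal values in several samples.

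The Blnk promoter is shown because it carries the octamer, as the reverse complement ATTTGCAT in capitals, which begins 130 bases before the start. Among all promoters 1.74% hold it, and among the 29 genes Blnk and Vpreb3 do. The Pou2af1 promoter beside it carries the XBP1 and ATF6 element in capitals, 61 bases before the start.
Blnk promoter, chr19:40994172-40994471, minus strand: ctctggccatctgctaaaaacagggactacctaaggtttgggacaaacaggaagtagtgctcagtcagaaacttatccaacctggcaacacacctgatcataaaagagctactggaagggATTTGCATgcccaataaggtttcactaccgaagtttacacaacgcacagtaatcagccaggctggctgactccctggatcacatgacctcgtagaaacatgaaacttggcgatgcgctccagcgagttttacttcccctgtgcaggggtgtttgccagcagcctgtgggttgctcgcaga
Pou2af1 promoter, chr9:51213440-51213739, plus strand: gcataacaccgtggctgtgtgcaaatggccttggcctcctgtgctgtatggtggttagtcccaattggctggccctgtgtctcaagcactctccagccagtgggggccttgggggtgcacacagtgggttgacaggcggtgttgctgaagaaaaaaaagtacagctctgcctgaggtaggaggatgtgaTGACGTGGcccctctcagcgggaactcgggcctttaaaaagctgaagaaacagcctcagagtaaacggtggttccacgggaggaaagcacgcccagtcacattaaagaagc

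**Figure D2:**
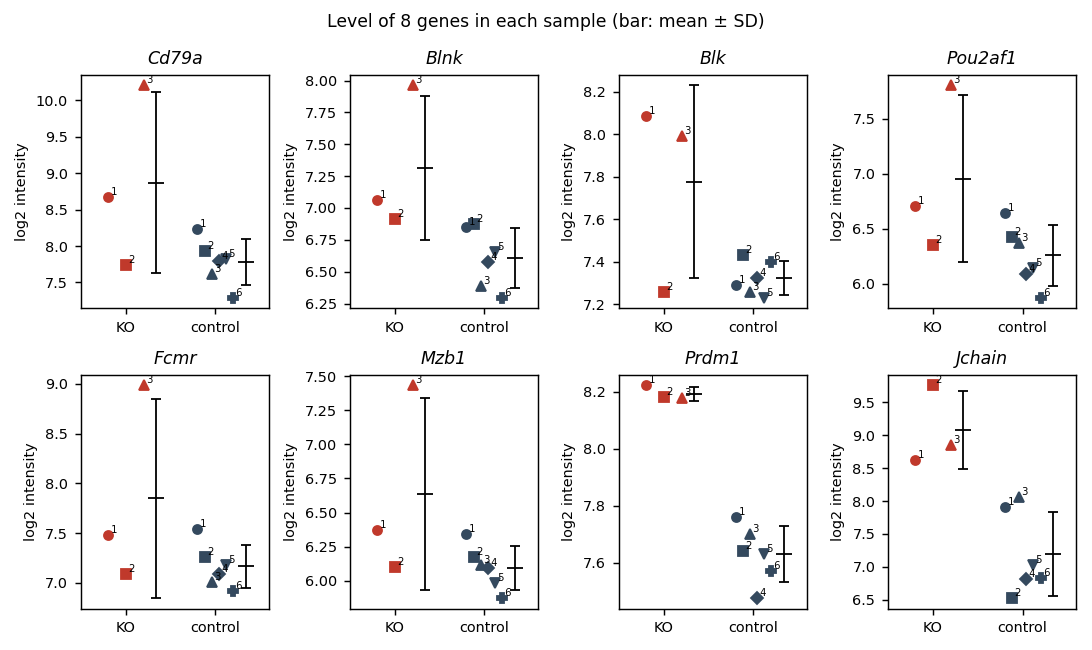
Log2 intensity of 8 genes in each knockout (KO, red) and control (dark blue) sample, with replicates numbered and the group mean ± SD as a bar. Prdm1, Jchain and Blnk had every knockout above every control. Cd79a, Pou2af1, Fcmr and Mzb1 had knockout replicate 3 far above the rest, at 10.21, 7.81, 8.98 and 7.43, as had Blnk at 7.96. The 8 genes are a selection. Genes with knockout replicates 1 and 2 below every control, such as Cd22 and Fcrl1, are not shown.

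None of the 4 B lineage transcription and exchange factors passed the test. In each the value in knockout replicate 3 was above every control, as it was in 17.1% of all genes. Pou2af1, the B cell coactivator of Oct factors, read 6.71, 6.35 and 7.81 in the knockouts, against 5.87 to 6.65 in the controls (median 6.25), with a change of 0.70 (SE 0.27, limma's adjusted p = 0.27). Ebf1, the pioneer factor of the B lineage, read 6.36, 5.67 and 7.16 in the knockouts, against 5.73 to 6.23 in the controls (median 5.82), with a change of 0.53 (SE 0.25, limma's adjusted p = 0.37). In both genes knockout replicates 1 and 3 were above every control and replicate 2 was not, and control replicate 1 was the highest control. Pax5, the factor of B cell identity, read 5.89, 5.89 and 6.61 in the knockouts, against 5.67 to 5.93 in the controls (median 5.87), so that replicate 3 alone stood out (change 0.29, SE 0.14, limma's adjusted p = 0.4). Ralgps2, an exchange factor for the GTPase Ral, read 6.89, 6.78 and 7.33 in the knockouts, against 6.67 to 7.02 in the controls (median 6.81), again with replicate 3 alone above the controls. Without knockout replicate 3 the changes of Pou2af1, Ebf1, Pax5 and Ralgps2 were 0.27, 0.15, 0.048 and 0.01.

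Of the 9 surface receptors of B cells, some stood far above the controls in knockout replicate 3 and some did not. Fcmr, the receptor for IgM, read 7.48, 7.08 and 8.98 in the knockouts, against 6.92 to 7.54 in the controls (median 7.13), with a change of 0.68 (SE 0.33, limma's adjusted p = 0.38) that was 0.11 without replicate 3. Fcrl5, an Fc receptor-like protein of marginal zone B cells and plasma cells, read 7.46, 6.67 and 8.17 in the knockouts, against 6.61 to 7.13 in the controls (median 6.94). These 2 genes were 1.82 and 1.26 above their control means in replicate 3. Ms4a1, which encodes CD20, read 8.34, 8.32 and 8.64 in the knockouts, against 8.28 to 8.57 in the controls (median 8.35), and Cr2, the complement receptor CD21, read 6.32, 6.14 and 6.87 in the knockouts, against 6.39 to 6.67 in the controls (median 6.53). Replicate 3 was only 0.24 and 0.35 above the control mean in these, and Cr2 was below every control in the other 2 knockouts. Fcer2a, the low-affinity IgE receptor CD23, read 6.28, 6.04 and 5.95 in the knockouts, against 5.97 to 6.30 in the controls (median 6.16), and was lowest in replicate 3. Fcrla, an intracellular relative of the Fc receptors, read 7.70, 7.77 and 7.72 in the knockouts and lay inside the control range of 7.58 to 7.999 (median 7.68) in all of them.

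The sialic acid-binding inhibitors and Fcrl1 did not pass the test either. Cd22, a sialic acid-binding inhibitor of receptor signalling, read 9.90, 9.75 and 10.43 in the knockouts, against 10.02 to 10.41 in the controls (median 10.15). Replicates 1 and 2 were below every control and replicate 3 just above them (change -0.16, SE 0.14, limma's adjusted p = 0.67). The change was -0.36 without replicate 3 (limma's adjusted p = 0.15) and -0.017 without replicate 2 (adjusted p = 0.98). Fcrl1, an Fc receptor-like coreceptor of B cells, read 9.85, 9.72 and 10.06 in the knockouts, against 10.04 to 10.24 in the controls (median 10.12). Replicates 1 and 2 were below every control. It had the largest negative change of the group, -0.25 (SE 0.08, 95% confidence interval -0.42 to -0.07), which did not pass (limma's adjusted p = 0.18), and with array weights it was -0.32 and passed (limma's adjusted p = 0.042). Siglecg, another sialic acid-binding inhibitor that DCs also carry, read 9.97, 9.80 and 9.93 in the knockouts, against 9.84 to 10.06 in the controls (median 9.96), and overlapped with them (change -0.055, SE 0.07, limma's adjusted p = 0.8). In the 9 surface receptors together the median change was -0.050, and 0 passed in either direction by limma, with 0 higher and 1 lower at an unadjusted p of 0.05.

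None of the 3 receptors for the survival factors BAFF and APRIL passed the test. Tnfrsf13c, the BAFF receptor, read 7.74, 7.51 and 8.14 in the knockouts, against 7.46 to 7.80 in the controls (median 7.57), and was above every control in replicate 3 alone. Tnfrsf17, the plasma cell receptor BCMA, read 4.90, 4.60 and 4.74 in the knockouts, against 4.25 to 4.60 in the controls (median 4.54), a change of 0.27 (SE 0.10, limma's adjusted p = 0.24). Its knockout replicates 1 and 3 were above every control, and knockout replicate 2 had the same value as control replicates 1 and 2, the highest controls. The probe was dim, with a control mean of 4.48, where the 25th percentile of all gene means was 4.63. Tnfrsf13b, the receptor TACI, read 5.88, 5.77 and 6.05 in the knockouts, against 5.89 to 6.05 in the controls (median 6.01), with replicates 1 and 2 below every control.

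Each sample was left out in turn, and the fit without knockout replicate 3 is set out here because that replicate stood apart. It did so partly in these same 32 genes, so their smaller changes without it are no separate evidence. Knockout replicate 3 exceeded the mean of the other knockouts by a median of 0.44 over the 32 genes, beside -0.0022 over all genes. It was over 0.5 above the control mean in 16 of the 32 genes (1.83% of all genes) and over 1 above it in 8 (0.298% of all genes). Without it 19 of the 32 changes were above 0, beside 22 with it, 27 kept their sign, and Prdm1 alone passed, beside 0.821% of all genes. Without knockout replicate 1 Prdm1 and Jchain passed (1.5% of all genes), and without knockout replicate 2 Prdm1 and Blk did (0.149% of all genes). Prdm1 differed between knockout replicate 3 and the mean of the other knockouts by -0.026 and Jchain by -0.34. The largest such differences among the 32 genes were 2.00 for Cd79a, 1.70 for Fcmr, 1.28 for Pou2af1 and 1.19 for Mzb1. The 32 genes ranged from -0.39 (Creld2) to 2.00, and B cell genes such as Fcer2a (-0.21), Fcrla (-0.022) and Siglecg (0.048) did not share the rise.

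**Figure D3:**
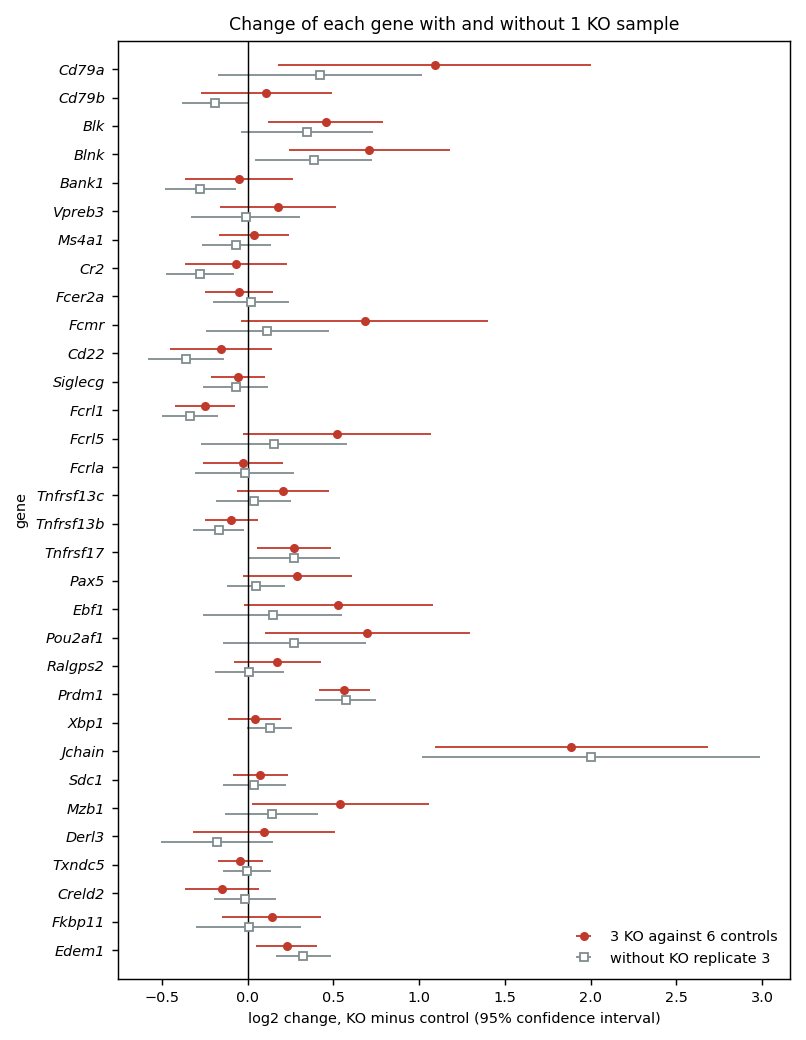
Log2 change of each gene, knockout minus control, with its 95% confidence interval by limma, from all 9 samples (red circles) and without knockout replicate 3 (open grey squares). With all samples and without that one, the change was 1.09 and 0.42 for Cd79a, 0.68 and 0.11 for Fcmr, and 0.56 and 0.57 for Prdm1.

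Wider lists of genes from the same pathways gave 0 to 2 calls each. Over all genes tested, limma called 0.415% higher and 0.491% lower. At an unadjusted p of 0.05, 5.5% of all genes were higher and 8.82% lower. Of 22 measured other B cell identity genes, 0 passed by limma (1 higher and 3 lower at an unadjusted p of 0.05), and the 2 with the smallest p were lower, the transcription factor Bcl11a (-0.28, SE 0.08, limma's adjusted p = 0.15) and H2-Oa, a chain of a modulator of MHC class II peptide loading (-0.18, adjusted p = 0.21). Of 25 B cell receptor signalling genes 1 rose and 0 fell (5 and 2 at an unadjusted p of 0.05). It was Fcgr2b, the inhibitory Fc receptor that DCs and macrophages also carry, at 11.08, 10.96 and 11.16 in the knockouts, against 10.16 to 10.62 in the controls (change 0.74, SE 0.09, limma's adjusted p = 0.0086). Of 25 other antibody-secreting cell genes 2 rose and 0 fell (7 and 0 at an unadjusted p of 0.05), which were Cd93, a lectin-like receptor found also on myeloid cells (0.63, SE 0.08, limma's adjusted p = 0.0087), and Tent5c, a poly(A) polymerase (0.53, SE 0.09, adjusted p = 0.031). Tent5c passed in 2 and Cd93 in 9 of the 9 fits that left out 1 sample. The median change was 0.062, 0.0001 and 0.13 in these 3 lists.

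The list of XBP1 targets and the unfolded protein response gave 1 call, where 0.906% of all genes were called. Of its 45 measured genes 1 rose and 0 fell (2 and 3 at an unadjusted p of 0.05), with a median change of -0.024. The gene that rose was Ddit3, the stress-induced C/EBP family member CHOP, at 8.01, 8.02 and 7.97 in the knockouts, against 7.44 to 7.69 in the controls (change 0.42, SE 0.07, limma's adjusted p = 0.027), and it passed in 5 of the 9 fits that left out 1 sample. In knockout replicate 3, 22 of the 45 were below every control, beside 23.7% of all genes, and the list mean was 0.017, 0.057 and -0.13 in the knockouts, against -0.061 to 0.069 in the controls. Among 10 germinal centre genes 1 rose and 0 fell, the death receptor Fas (0.63, SE 0.07, limma's adjusted p = 0.0042). Among 13 marginal zone and B-1 genes the sphingosine phosphate receptor S1pr3 rose (0.63, SE 0.11, limma's adjusted p = 0.03) and the Notch target Dtx1 fell (-0.46, SE 0.07, adjusted p = 0.018), with medians of 0.016 and 0.16 in these 2 lists. The call of S1pr3 held in 1 and that of Dtx1 in 8 of the 9 fits that left out 1 sample.

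Markers of other cell types moved in part with the same samples. The plasmacytoid DC list (11 of 12 measured) had means of 0.019, 0.17 and 0.45 in the knockouts, against -0.12 to 0.20 in the controls, and 7 of its 11 genes were above every control in knockout replicate 3. The same held for 17.1% of all genes. None of the 11 passed by limma, and 2 were higher and 0 lower at an unadjusted p of 0.05. Bst2, a surface protein of plasmacytoid DCs, read 10.12, 10.08 and 10.63 in the knockouts, against 9.72 to 10.53 in the controls, so knockout replicate 3 was the highest sample for it as for Cd79a. Lair1, the other of the 2 most abundant genes of this list, was not highest there. It read 9.55, 9.41 and 9.63 in the knockouts, against 9.37 to 9.74 in the controls (change -0.048). The red pulp macrophage list (13 of 13) had 0.23, 0.78 and 0.70 in the knockouts, against -0.57 to 0.58 in the controls. It had 0 calls, and 9 genes were higher at an unadjusted p of 0.05, beside 5.5% of all genes. The monocyte list (14 of 14) had 0.23, 0.27 and 0.38 in the knockouts, against -0.16 to 0.13 in the controls, and 1 gene rose, Ace, named after its values were seen. At an unadjusted p of 0.05 by limma, 6 of the 14 genes were higher and 0 lower, beside 5.5% and 8.82% of all genes. Of the 14 changes, 13 were above 0. The T cell list (12 of 14) had 0.11, 0.012 and 0.087 in the knockouts, against -0.055 to 0.068 in the controls. It had 1 call, the interleukin receptor Il7r (0.71, SE 0.09, limma's adjusted p = 0.0086), with 2 genes higher and 1 lower at an unadjusted p of 0.05. Cd5, the other of the 2 most abundant genes of this list, was below every control in all 3 knockouts (-0.31, SE 0.09, limma's adjusted p = 0.14). The NK cell list (8 of 10) had -0.028, -0.084 and 0.12 in the knockouts, against -0.07 to 0.11 in the controls, with 0 calls. The DC list (16 of 18) had -0.055, 0.026 and -0.13 in the knockouts, against -0.10 to 0.087 in the controls, so it was lowest in knockout replicate 3, with 0 calls. The neutrophil (9 of 9), erythroid (3 of 9), platelet (5 of 6) and stromal and endothelial (7 of 8) lists had 0 calls by limma, with 1, 1, 0 and 0 genes higher and 0 lower at an unadjusted p of 0.05. The part of other cell types in the values of the 32 genes was not tested.

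**Figure D4:**
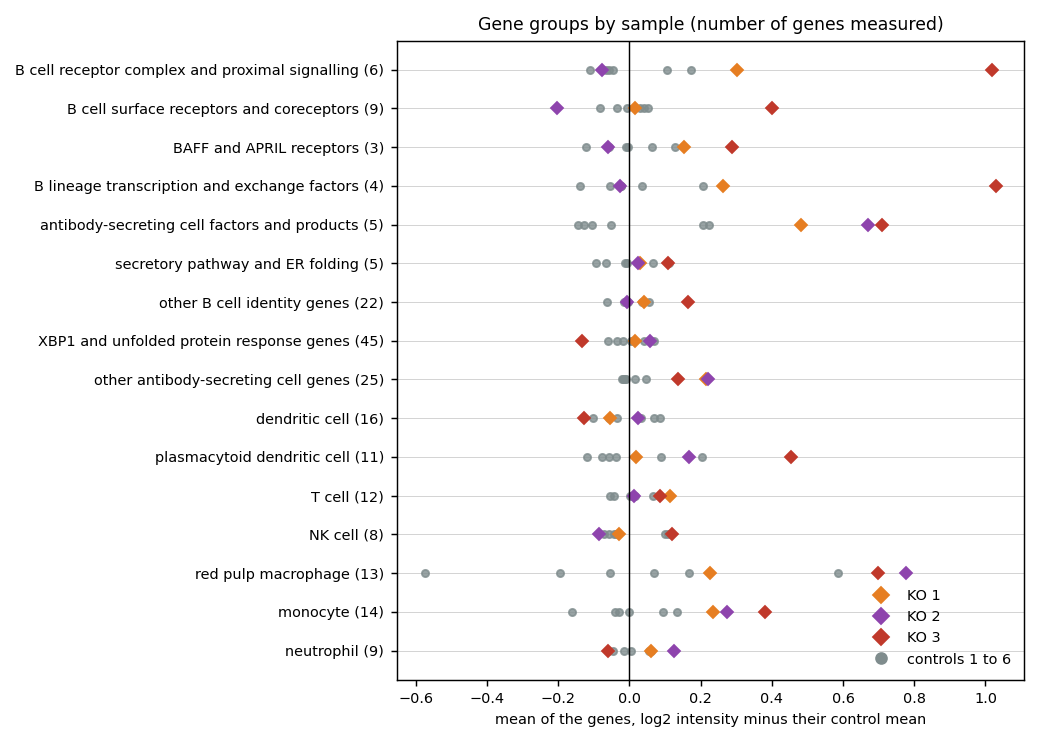
Mean of each gene group in each sample, as log2 intensity minus the control mean, for knockout replicates 1 to 3 (coloured diamonds) and the 6 controls (grey circles), with the number of genes measured in brackets. Knockout replicate 3 lay at 1.02 for the B cell receptor genes and 1.03 for the transcription and exchange factors, while the mean of the 5 antibody-secreting cell factors, at 0.48, 0.67 and 0.71 in the knockouts, holds the 2 called genes Jchain and Prdm1, and in knockout replicate 2 the other 3 (Xbp1, Sdc1 and Mzb1) were 0.14, 0.085 and 0.0068 above their control means.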

How the data were processed

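Transcripts of sorted splenic DCs were measured on 9 arrays, 3 knockout and 6 control, grouped by the genotype in the labels. The table deposited for the series holds log2 intensities by probe and array, which the authors obtained by RMA, as the submitters' processing notes record. No source used here names its version, a genome build or a scan batch. The quantile step of RMA takes out shifts that most genes share, and small values carry compressed differences. The table held 41801 rows, 7329 without a value and 4 with some missing, and 34468 probes were kept. The platform's annotation gave 1 symbol to 23521 probes, several to 1814 and none to 9133, and the brightest probe of each gene left 22180 genes, of which 21994 had a gene ID in the RefSeq table. Knockout was compared with control by a two-sided moderated test (lmFit, then eBayes) in limma 3.58.1 under R 4.3.3, without a covariate, with Benjamini-Hochberg adjustment over all genes and a threshold of 0.05. Confidence intervals are at 95%, and the number of arrays limits every value. The fit was tested on simulated data. The members, lists and tests were chosen with earlier results of these data known, so lists are given as counts and medians with no test. All members were named, with Cebpb and the called genes of each wider list (otherwise the 2 with the smallest p). The 2 most abundant genes of each marker list were also set out to be named. Both are printed only for the DC, plasmacytoid DC and T cell lists. The alternatives were each sample left out, a minimum change of 1.2-fold, the mean over a gene's probes, only genes at or above the median signal, the replicate number as block, array weights, a trended robust eBayes (statmod 1.5.0), quantile normalization applied again, and median centring. Tables and figures used Python 3.11.15, pandas 2.3.3, numpy 2.4.6 and matplotlib 3.10.9.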

Additional observations from a re-analysis of the deposited data

Results flagged for a closer look

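Control samples that stood far from the other 5 were looked for in 62 control groups, of which 4 had one, and chance alone gives about 1 in 20. Ebf1 was 6.23 in control replicate 1 and at most 5.90 in the other controls. Fkbp11 was 5.22 in control replicate 1 and at most 4.80 in the others. The neutrophil markers Ltf, at 5.42 in control replicate 1 beside at most 5.19, and Cxcr2, at 6.09 in control replicate 6 beside at most 5.95, were the other 2.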

How the results depend on the processing

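The count of 201 genes past the threshold was 125 with arrays centred on their medians, 652 with array weights, 537 among genes at or above the median gene, 7 with a minimum change of 1.2-fold, and 33 to 332 with 1 sample left out (33 without knockout replicate 2, 332 without knockout replicate 1, and 49 to 73 without control replicate 1, 3, 4, 5 or 6). The 2 calls among the 32 genes were 0 with a minimum change of 1.2-fold (limma's treat, 4 at an unadjusted p of 0.05) and 1 to 2 with 1 sample left out. The wider lists had 0 calls with that minimum change. With array weights the other B cell identity list had 1 call and the other antibody-secreting list 4. With 1 sample left out the calls were 0 to 2 in the unfolded protein response list, 1 to 3 in the other antibody-secreting list, 1 to 2 in the germinal centre list and 0 to 2 in the marginal zone list. The median change of the 32 genes was 0.081 with array weights and 0.028 to 0.27 with 1 sample left out.

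Changes near 0 turned sign for Cd79b (-0.087), Ms4a1 (-0.035) and Derl3 (-0.0701) with array weights, for Fcrla (0.016) with a second quantile normalization and for Sdc1 (-0.023) with the mean of its probes. With 1 sample left out the range crossed 0 for Cd79b (-0.19 to 0.29), Bank1 (-0.28 to 0.12), Vpreb3 (-0.011 to 0.27), Ms4a1 (-0.066 to 0.091), Cr2 (-0.28 to 0.082), Fcer2a (-0.145 to 0.0204), Fcrla (-0.061 to 0.023), Xbp1 (-0.0099 to 0.13) and Derl3 (-0.18 to 0.26). The cause was not tested. Of 524 pairs of gene and setting, with Cebpb included, 495 kept direction and side of the threshold, 10 lost a call, 2 gained one (Blk and Fcrl1) and 17 turned sign.

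Deviations of same-numbered knockout and control samples from their group means had correlations of -0.058, -0.034 and -0.097 for replicates 1 to 3. Pairs of different numbers had -0.0496 to 0.104. These values do not show whether same-numbered samples share more than a number. With the replicate number as a block, 2 genes passed (1995 at an unadjusted p of 0.05), 0 of the 32 genes did (3 at an unadjusted p), and 0 in each wider list. Numbers 4 to 6 exist only among the controls, so the change in this fit rests on replicates 1 to 3 of each group. The block gave 0.49 for Prdm1 (limma's adjusted p = 0.34), 1.58 for Jchain (adjusted p = 0.47) and -1.47 for Cebpb (adjusted p = 0.14), so these calls were lost, and turned the sign of Fcrla (0.075).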
